A study of Mus musculus with 105 samples.

Results

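The miR-15/16 family was followed through every labelled and input small-RNA library of a mouse study of how fast cells make and lose microRNAs (miRNAs). The 7 members were taken by name from the tables, out of 1013 mature miRNAs: the guide strands mmu-miR-15a-5p, mmu-miR-15b-5p, mmu-miR-16-5p, mmu-miR-195a-5p and mmu-miR-497a-5p, and the passenger strands mmu-miR-15a-3p and mmu-miR-15b-3p. The species prefix is left out from here on. All 7 passed the filter on low counts in the tests of levels. RNA made after the start of labelling was marked with 5-ethynyluridine (5EU), a uridine analogue, at 125 µM for stem cells and 400 µM for fibroblasts. EU libraries were made from small RNA pulled down through that mark, and input libraries from the cells' small RNA without a pulldown.

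The cells were ESC, v6.5 embryonic stem cells (strain C57BL/6) grown with LIF and the inhibitors PD0325901 and CHIR99021. The fibroblasts were all C57BL/6J embryonic fibroblasts. CyrKO was a contact-inhibited fibroblast culture labelled as a knockout, CIMEF was the contact-inhibited wild type, held so for 5 days before labelling, and DMEF was passaged and dividing. Labelling ran from 0 h to 24 h in ESC, from 2 h to 1 week in CyrKO, from 0 h to 1 week in CIMEF and from 0 h to 72 h in DMEF. A set of libraries ordered by labelling time is called a course. ESC, CIMEF and DMEF had 2 courses each and CyrKO had 1, so a knockout value is that of a single culture series. Nothing in the labels says that courses came from separate embryos or thaws, so p-values measure only the spread between these courses. There were 47 input libraries with 912688 to 9117300 miRNA counts, 47 EU libraries with 1196 to 2463188, and 6 mRNA libraries from ESC, CIMEF and DMEF with 23030907 to 34093791 counts. EU libraries of ESC were the shallowest, and read counts are given beside early values that rest on few reads.

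An animal miRNA is cut from a hairpin as a short duplex, of which the guide strand stays in an Argonaute protein and the passenger strand is usually discarded. Bases 2 to 8 of the guide, the seed, pair with messenger RNAs and lower their stability and translation. The miR-15/16 family is known for restraining the cell cycle and for repressing the survival gene Bcl2, and loss of the miR-15a/16-1 locus is a recurrent lesion in chronic lymphocytic leukaemia in humans.

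The mature sequences are shown because the guides differ only outside the seed, which sets which reads can be told apart. They are RefSeq's (GRCm38.p6), read 5′ to 3′, with the seed in capitals. The guide strands were:
miR-15a-5p: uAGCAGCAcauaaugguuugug
miR-15b-5p: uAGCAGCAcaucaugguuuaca
miR-16-5p: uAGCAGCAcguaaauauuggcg
miR-195a-5p: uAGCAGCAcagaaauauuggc
miR-497a-5p: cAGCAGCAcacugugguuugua

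All 5 guides carry the seed AGCAGCA, as do 10 of 1679 mature miRNAs in the reference, among them miR-322-5p. Position by position, miR-15a-5p and miR-15b-5p are identical at 18 of 22 bases. miR-16-5p and miR-195a-5p are identical at 19 of 21, whereas miR-16-5p and miR-497a-5p are identical at 11 of 22. The passenger strands that the results turn on have seeds of their own:
miR-15a-3p: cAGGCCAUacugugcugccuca
miR-15b-3p: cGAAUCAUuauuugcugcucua
miR-16-1-3p: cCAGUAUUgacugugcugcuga
miR-16-2-3p: aCCAAUAUuauugugcugcuuu

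The members come from 6 hairpins in 3 pairs. Mir15a (chr14:61632027-61632110) and Mir16-1 (chr14:61631880-61631972) lie 54 bases apart on the minus strand, inside the span of the noncoding gene Dleu2. Mir15b (chr3:69009772-69009835) and Mir16-2 (chr3:69009902-69009996) lie 66 bases apart on the plus strand, inside the span of Smc4, a condensin subunit gene. Mir497 (chr11:70234717-70234800) and Mir195a (chr11:70235042-70235135) lie 241 bases apart on the plus strand. The mature miR-16-5p of Mir16-1 and Mir16-2 is the same sequence, so its reads could not be assigned to either locus, and only the passenger strands miR-16-1-3p and miR-16-2-3p tell the 2 loci apart.

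In standing RNA, miR-16-5p was the most abundant member in each of the 7 courses and ranked between 4th and 15th of 812 miRNAs. Levels are CPM (counts per 1000000 miRNA counts) after edgeR scaling, with input counts summed over a course. miR-16-5p stood at 11406 and 14303 CPM in ESC, 62233 CPM in CyrKO, 38702 and 55033 CPM in CIMEF, and 26082 and 20998 CPM in DMEF. The ESC courses were the lowest and did not overlap those of any fibroblast line, and every CIMEF course was above every DMEF course.

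miR-15a-5p, made from the hairpin beside Mir16-1, had the same order of ESC, DMEF and CIMEF. It stood at 3787 and 4551 CPM in ESC, 17437 CPM in CyrKO, 14343 and 20882 CPM in CIMEF, and 8799 and 7094 CPM in DMEF. The CyrKO course fell between the 2 CIMEF courses.

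miR-15b-5p, from the Smc4 hairpin, varied least among the guides. It stood at 4634 and 4920 CPM in ESC, 12178 CPM in CyrKO, 6077 and 11108 CPM in CIMEF, and 7889 and 8107 CPM in DMEF. The 2 CIMEF courses lay on either side of both DMEF courses, so these lines overlapped.

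miR-195a-5p and miR-497a-5p, the pair from the chromosome 11 hairpins, were rarer and followed another order. miR-195a-5p stood at 262 and 228 CPM in ESC, 220 CPM in CyrKO, 361 and 560 CPM in CIMEF, and 36.9 and 20.7 CPM in DMEF. miR-497a-5p stood at 309 and 289 CPM in ESC, 215 CPM in CyrKO, 348 and 561 CPM in CIMEF, and 42.1 and 26.1 CPM in DMEF. Both were lowest in DMEF, where neither course came near any other course, and the miR-195a-5p count of DMEF course 2 was 188 reads.

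Of the passenger strands, miR-15a-3p stood at 69.2 and 84.3 CPM in ESC, 149.99 CPM in CyrKO, 129 and 204 CPM in CIMEF, and 93.6 and 96.0 CPM in DMEF. miR-15b-3p stood at 266 and 247 CPM in ESC, 497.4 CPM in CyrKO, 289 and 458 CPM in CIMEF, and 505 and 485 CPM in DMEF. Unlike its guide, miR-15b-3p was higher in both DMEF courses than in either CIMEF course.

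**Figure D1:**
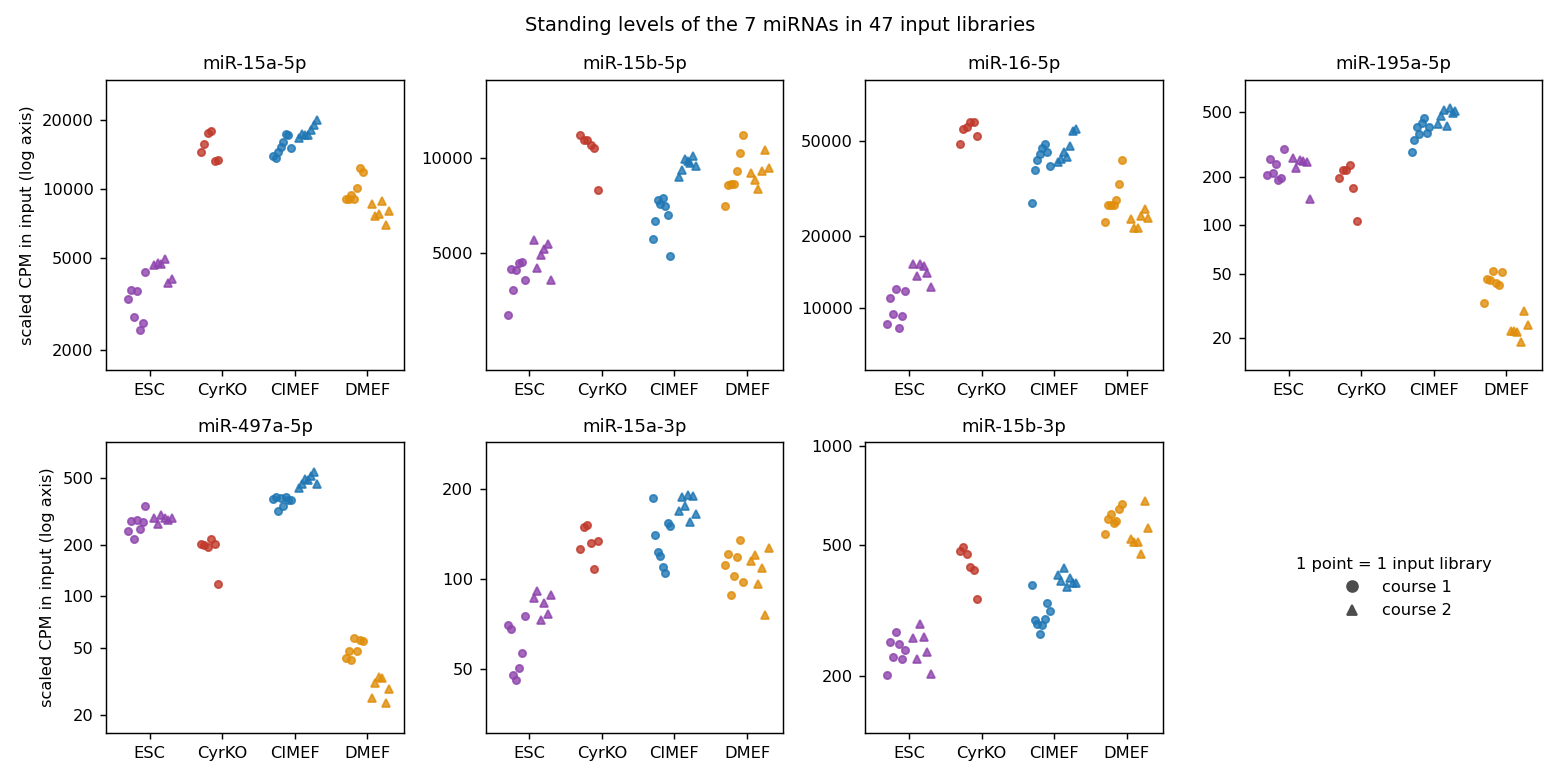
Standing levels of the 7 members in 47 input libraries, as scaled CPM on a log axis, 1 panel per miRNA and 1 point per library, with circles for course 1 and triangles for course 2. miR-195a-5p and miR-497a-5p libraries of DMEF sit at 19.1 to 56.7 CPM, below every library of the other lines, whereas miR-15a-5p and miR-16-5p are lowest in ESC.

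Together the 7 members took 2.65% and 3.24% of miRNA counts in ESC input, 6.94% in CyrKO, 4.96% and 7.10% in CIMEF, and 4.46% and 4.34% in DMEF. miR-16-5p made up 55.0% to 67.0% of these counts over the 7 courses, miR-15a-5p 18.3% to 23.8% and miR-15b-5p 10.1% to 22.4%. miR-195a-5p made up 0.0563% to 1.27% and miR-497a-5p 0.0710% to 1.49%, with the lowest share of both in DMEF course 2 and the highest in ESC course 1.

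ESC stood apart from DMEF in the chromosome 11 pair, which rose. miR-497a-5p was higher by 3.13 on the log2 scale (SE 0.54, adjusted p = 0.00521) and miR-195a-5p by 3.09 (SE 0.56, adjusted p = 0.00618), in edgeR's quasi-likelihood test with Benjamini-Hochberg adjustment over 812 miRNAs. These were 2 of 7 members, in a comparison in which 22.8% of all miRNAs tested were called higher and 25.0% lower. The other 5 members had log2 differences of -0.95 to -0.30 and did not pass. The closest were miR-16-5p at -0.87 (adjusted p = 0.0522) and miR-15a-5p at -0.93 (adjusted p = 0.0545). The median of all miRNAs tested was 0.52, so all 5 lay below it.

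Against CIMEF, miR-15a-5p and miR-16-5p fell in ESC. miR-15a-5p fell by 2.08 on the log2 scale (SE 0.33, adjusted p = 0.00318), a 4.22-fold difference, and miR-16-5p fell by 1.87 (SE 0.30, adjusted p = 0.00341), a 3.65-fold difference, in the same edgeR fit. In that comparison 29.2% of all miRNAs were called lower and 27.3% higher, and the remaining 5 members did not pass, with log2 differences of -1.12 to -0.54. The median of all miRNAs was 0.43. The passengers that tell the miR-16 loci apart did not pass either. miR-16-1-3p, from Dleu2, was at -0.32 (adjusted p = 0.549) and miR-16-2-3p, from Smc4, at -0.35 (adjusted p = 0.584) in edgeR. miR-16-1-3p stood at 60.6 and 59.8 CPM in ESC, 72.3 and 78.0 CPM in CIMEF, and 90.3 and 72.8 CPM in DMEF. Without CIMEF course 1 the count of members called was 4. With libraries scaled to the synthetic standards no member was called in either ESC comparison, but standards ranged from 36.1 to 32193 counts per 1000000 miRNA counts between courses, so that scaling does not make courses comparable.

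Between CIMEF and DMEF no member passed in edgeR, and 0.0% of 812 miRNAs did. miR-195a-5p had the largest difference of the 7, at 3.99 (SE 0.58, adjusted p = 0.0751), followed by miR-497a-5p at 3.73 (SE 0.55, adjusted p = 0.0751). miR-15a-5p was at 1.15 (adjusted p = 0.140), miR-16-5p at 0.99 (adjusted p = 0.156), miR-15a-3p at 0.81, miR-15b-5p at 0.10 and miR-15b-3p at -0.41. At an unadjusted p under 0.05 edgeR had 158 miRNAs, and DESeq2 called 112 miRNAs, 3 of them members. Without CIMEF course 1 edgeR called 4 members and without CIMEF course 2 it called 2. The courses of the 2 lines did not overlap for 6 of 7 members, against 45.0% of all miRNAs.

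In CyrKO against CIMEF no member passed, in a test that borrows its spread from the other courses and called 7 miRNAs (0.862%) in edgeR. miR-497a-5p was at -1.08 (SE 0.64) and miR-195a-5p at -1.06 (SE 0.66), with adjusted p = 0.584 for each. miR-15b-5p was at 0.50, miR-16-5p at 0.41, miR-15b-3p at 0.41, miR-15a-5p at -0.01 and miR-15a-3p at -0.15. At an unadjusted p under 0.05 edgeR had 89 miRNAs, and DESeq2 called 34, with no member among them. miR-7a-5p, known to be held down by the long noncoding RNA Cyrano in mice, served to check the knockout label and stood at 3770 CPM in CyrKO against 101 and 103 CPM in CIMEF (log2 difference 5.21, adjusted p = 0.0113).

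The stem-cell and fibroblast miRNA markers went with the labels, and ESC also held more of the blood-cell and of the endothelial, liver or epithelial markers than the fibroblasts did. The 6 stem-cell miRNAs of the list summed to 354410 and 365390 CPM in ESC, against 0.51 to 7.20 CPM in the fibroblast courses. The 4 measured fibroblast miRNAs summed to 1062 and 1169 CPM in ESC, against 76832 to 112220 CPM in the fibroblast courses. The 5 measured blood-cell miRNAs summed to 3480 and 3866 CPM in ESC, against 12.8 to 237 CPM in fibroblasts, and the largest part of the ESC sum was miR-150-5p and miR-142a-5p. The 3 measured muscle miRNAs summed to 2.28 and 130.1 CPM in ESC, 36.9 CPM in CyrKO, 53.1 and 130 CPM in CIMEF, and 371 and 424 CPM in DMEF. The 4 endothelial, liver or epithelial ones summed to 3357 and 2149 CPM in ESC, against 13.5 to 150.05 CPM in the fibroblast courses, and the 3 neural ones to 368 to 1104 CPM over the 7 courses. In the mRNA libraries, 3 of 4 fibroblast genes were called lower in ESC than in CIMEF, and Thy1 was not (edgeR, adjusted p = 0.0867). Thy1 stood at 3.06 and 3.69 CPM in ESC, 36.2 and 1.18 CPM (27 reads) in CIMEF, and 107 and 119 CPM in DMEF. Its 2 CIMEF libraries thus differed widely. The part of other cells in the members' differences was not tested, and in bulk RNA fewer cells of a type and less RNA per cell cannot be told apart.

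The 2 guides of a hairpin pair had similar patterns over the 7 courses, and the chromosome 11 pair differed from the other guides. The other 2 pairs share the reads of miR-16-5p and were not clearly apart. The Pearson correlation of log2 CPM was 1.00 between miR-195a-5p and miR-497a-5p and 0.99 between miR-15a-5p and miR-16-5p. It was 0.87 between miR-15b-5p and miR-16-5p, 0.83 between miR-15a-5p and miR-15b-5p, and 0.31 between miR-15a-5p and miR-195a-5p. Outside the 7 members, among 471 miRNAs of at least 10 CPM, the patterns most like miR-16-5p were those of miR-331-3p (0.99), miR-26a-5p (0.99) and miR-30d-5p (0.99). Those most like miR-15a-5p were miR-328-3p (0.99), miR-26a-5p (0.99) and miR-140-5p (0.99), and those most like miR-15b-5p were miR-674-3p (0.99), miR-9-5p (0.98) and miR-674-5p (0.97). Also outside the members, miR-195a-5p was closest to miR-148b-5p (0.98), miR-450b-5p (0.97) and miR-335-3p (0.90), and miR-497a-5p to miR-148b-5p (0.99), miR-450b-5p (0.97) and miR-32-5p (0.90). These values rest on 7 points that share 3 lines, so they mainly describe differences between lines.

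miR-322-5p, which carries the same seed from an X-linked hairpin, had the order of ESC, DMEF and CIMEF seen in miR-15a-5p and miR-16-5p, with CyrKO between DMEF and CIMEF. It stood at 210 and 252 CPM in ESC, 3803 CPM in CyrKO, 12170 and 7975 CPM in CIMEF, and 1534 and 480 CPM in DMEF. miR-503-5p, its neighbour with the related seed AGCAGCG, stood at 155 and 176 CPM in ESC, 1188 CPM in CyrKO, 4133 and 1846 CPM in CIMEF, and 447 and 179 CPM in DMEF. In CIMEF course 1 miR-322-5p was close to the level of miR-15a-5p, while in ESC it was below every guide member in course 1 and above miR-195a-5p alone in course 2.

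Newly made RNA held far more passenger strand than standing RNA. This ratio of reads from the same hairpin in the same library does not depend on how libraries are scaled. The strands of a hairpin differ in their number of uridines, the base of which 5EU is an analogue. The effect of that number on the pulldown, and so on EU against input shares, was not tested. For miR-15b, the 3p strand made up 34.2% and 45.0% of the hairpin's EU reads at 1 h in ESC, 38.3% and 46.4% in CIMEF, and 44.0% and 44.2% in DMEF. At the last time it made up 9.24% and 6.32% in ESC (24 h), 10.3% and 9.14% in CIMEF (1 week), and 7.89% and 8.81% in DMEF (72 h). In CyrKO it was 27.8% at 2 h and 7.53% at 1 week. In input RNA of those last times the share was 5.502% and 4.70% in ESC, 4.15% in CyrKO, 6.06% and 3.90% in CIMEF, and 5.32% and 5.71% in DMEF, below the EU share in each of the 7 courses.

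For miR-15a, the 3p strand made up 14.6% and 18.4% of EU reads at 1 h in CIMEF, and 15.4% and 12.6% in DMEF. In ESC it was 4.35% in course 1, where it rests on 1 of 23 reads, and 22.7% in course 2. At the last time the shares were 0.98% (5 reads) and 2.60% in ESC, 0.93% and 0.64% in CIMEF, and 0.86% and 0.86% in DMEF, and in CyrKO they were 8.70% at 2 h and 0.63% at 1 week. The shares at 1 h were thus above those at the last time in every wild-type course for both hairpins. In input RNA of those last times the miR-15a share was 1.69% and 2.12% in ESC and 0.99% in CyrKO. It was 0.99% and 0.82% in CIMEF, and 0.81% and 1.55% in DMEF. Unlike for miR-15b, the EU share at the last time was above the input share only in ESC course 2 and DMEF course 1.

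**Figure D2:**
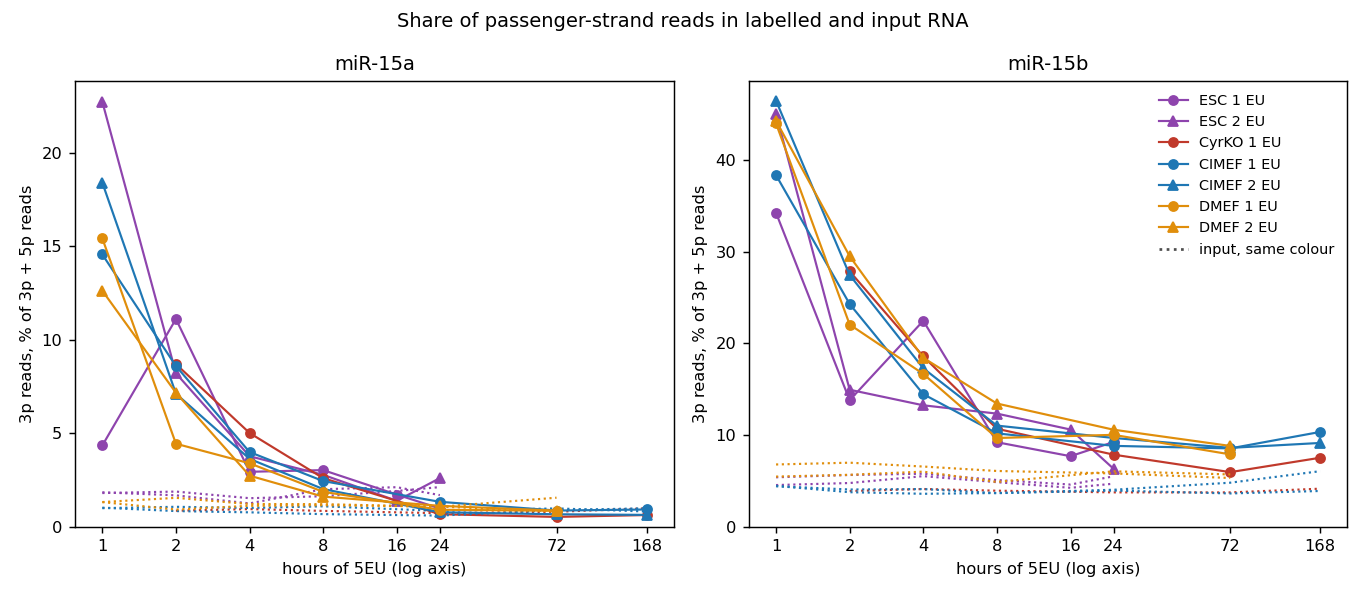
Share of 3p reads among the 3p and 5p reads of miR-15a (left) and miR-15b (right), in percent, against hours of 5EU on a log axis, with solid lines for EU libraries and dotted lines for input libraries of the same course. EU shares of miR-15b start at 34.2% to 46.4% at 1 h and end at 6.32% to 10.3%, above the input of the same course and time, and the early ESC points of miR-15a rest on few reads.

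Summed over 1 h and 2 h, the log2 ratio of 3p to 5p reads of miR-15a was higher in EU than in input RNA by 2.94 ± 0.37 (SD, n = 6 courses), a 7.67-fold difference. For miR-15b it was higher by 2.87 ± 0.46 (SD, n = 6 courses), a 7.32-fold difference. Both were positive in 6 of 6 courses, from 2.47 to 3.54 for miR-15a and from 2.29 to 3.36 for miR-15b. The two-sided exact permutation test over courses gave p = 0.03125 for each (adjusted over the 2 hairpins, 0.03125), which is the smallest p that 6 courses allow. The 0 h libraries, in which no 5EU was given, held 3p shares of 1.86% (CIMEF, 5 reads) and 3.45% (DMEF, 1 of 29 reads) for miR-15a and of 2.33% (CIMEF, 3 reads) and 5.00% (DMEF, 1 of 20 reads) for miR-15b.

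The same was measured one locus at a time for miR-16 through its passenger strands. Values are log2 ratios of EU to input RNA over 1 h and 2 h, minus the median of all miRNAs in that course. miR-16-1-3p stood at 4.15 and 3.60 in ESC, 5.55 and 5.69 in CIMEF, and 4.61 and 4.84 in DMEF, above 91.7% to 98.6% of miRNAs. miR-16-2-3p stood at 2.13 and 1.06 in ESC, 2.17 and 2.71 in CIMEF, and 1.67 and 1.62 in DMEF. The miR-16-1 passenger was above the miR-16-2 passenger in all 6 courses. In ESC the EU counts behind these values were 25 and 41 reads for miR-16-1-3p and 8 and 10 reads for miR-16-2-3p.

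On the same scale, the passenger members also stood above the median in each of the 6 courses and the abundant guides below it. miR-15a-3p stood at 1.64 (5 EU reads) and 2.02 in ESC, 3.48 and 2.84 in CIMEF, and 2.56 and 2.79 in DMEF. miR-15b-3p stood at 1.66 and 1.84 in ESC, 2.62 and 2.92 in CIMEF, and 2.03 and 2.69 in DMEF. Both were lowest in ESC.

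miR-16-5p stood at -0.95 and -1.77 in ESC, -1.05 and -1.07 in CIMEF, and -0.88 and -0.92 in DMEF, with 8.28% to 25.4% of miRNAs below it. miR-15b-5p ranged from -0.80 to -0.39 and miR-15a-5p from -0.81 to -0.05. miR-195a-5p ranged from -2.98 to -0.26, with EU counts of 1 and 3 reads in ESC and 2 and 13 reads in DMEF, and miR-497a-5p from -2.39 (3 EU reads, DMEF course 1) to 0.43. Within the family, miR-16-5p thus held a smaller part of newly made than of standing RNA.

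**Figure D3:**
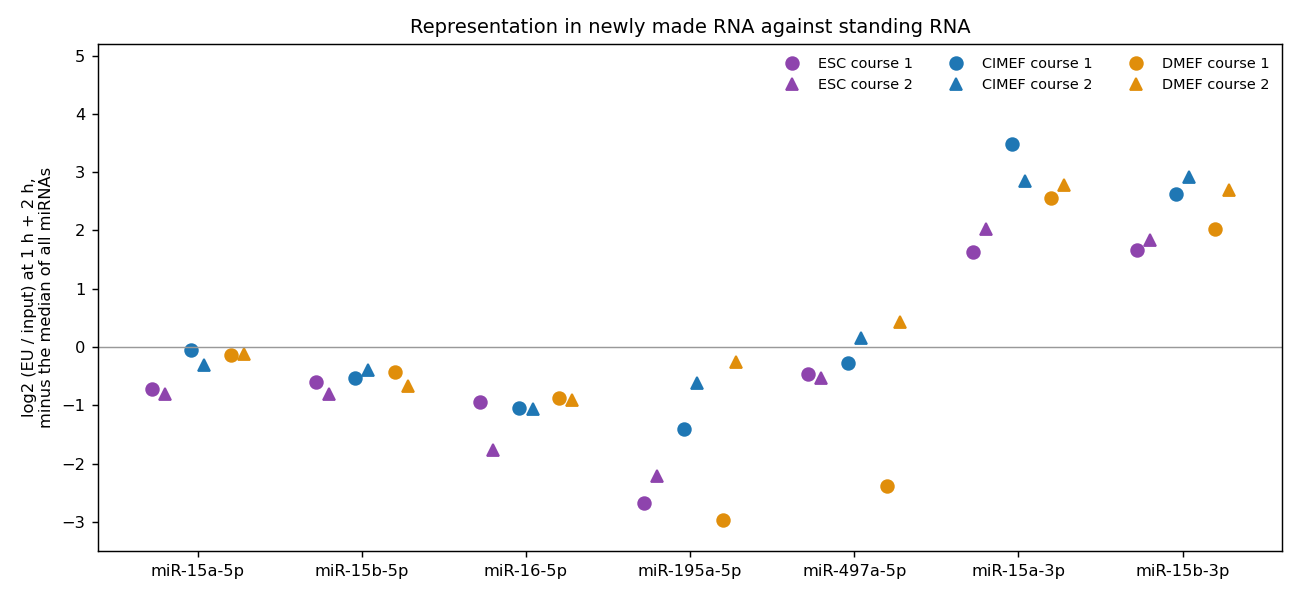
The log2 ratio of EU to input RNA over 1 h and 2 h, minus the median of all miRNAs of the course, for the 7 members in 6 courses, with 1 point per course. The passenger strands lie between 1.64 and 3.48 and miR-16-5p between -1.77 and -0.88, while the wide spread of miR-195a-5p goes with EU counts as low as 1 read.

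Tested across 603 miRNAs with edgeR, with the course as a term, 2 members rose in the new RNA of CIMEF and 3 fell, where 21.2% of all miRNAs were called higher and 30.2% lower. miR-15a-3p rose by 2.83 (adjusted p = 1.7e-17) and miR-15b-3p by 2.45 (adjusted p = 5e-16), and miR-16-5p fell by 1.38, miR-195a-5p by 1.28 and miR-15b-5p by 0.79. The test pools its spread over all 603 miRNAs, so p-values this small do not rest on the 2 CIMEF courses alone. The same 2 members rose and the same 3 fell in DMEF, where 23.7% of all miRNAs were called higher and 23.4% lower. miR-15a-3p rose by 2.63, miR-15b-3p rose by 2.32, miR-195a-5p fell by 1.21, miR-16-5p fell by 0.94 and miR-15b-5p fell by 0.60 (adjusted p = 0.0496). Without the course term 3 members were called in CIMEF and 2 in DMEF, and without DMEF course 1 there were 2 in DMEF.

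In ESC none rose and all 5 guides fell, where 8.62% of all miRNAs were called higher and 41.6% lower. The values depend on scaling there: the median of all miRNAs was -1.48 in edgeR and 0.99 in DESeq2. Under DESeq2, 2 members, miR-15a-3p at 1.77 and miR-15b-3p at 1.60, were called higher and 4 lower. miR-16-5p, at -2.58 in edgeR, was -1.10 relative to the median.

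The new-to-standing difference itself was not called different between CIMEF and DMEF for any member in edgeR, in a comparison that called 13 of 603 miRNAs (2.16%). At an unadjusted p under 0.05 edgeR had 70 miRNAs, and DESeq2 called 17, with no member. Between ESC and DMEF, 6 of 7 members were lower, with 27.5% of all miRNAs called lower and 1.49% higher. The median of all miRNAs was -1.49 there, and relative to it the members lay between -0.83 and 0.33. DESeq2 called 1 member, 2 were called without DMEF course 2 or without ESC course 1, and without the course term there was none.

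Within labelled RNA, the make-up of the family changed with time. At 2 h, miR-16-5p made up 50.5% and 37.9% of the members' EU counts in ESC, 53.2% in CyrKO, 46.0% and 43.7% in CIMEF, and 46.3% and 43.9% in DMEF. At 24 h it made up 46.1% and 44.0% in ESC, 62.5% in CyrKO, 54.9% and 54.1% in CIMEF, and 55.0% and 55.7% in DMEF. The share at 24 h was higher in 6 of 7 courses, the exception being ESC course 1 with 192 family counts at 2 h.

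Comparing newly made RNA between lines, the chromosome 11 pair again stood apart. CIMEF minus DMEF called no member in edgeR among 13 of 439 miRNAs (2.96%). miR-195a-5p was at 4.12 (SE 1.07, adjusted p = 0.0759) and miR-497a-5p at 4.05 (SE 1.00, adjusted p = 0.0678), on 2 and 13 and on 3 and 27 EU reads in the DMEF courses. At an unadjusted p under 0.05 edgeR had 75 miRNAs, and DESeq2 called 54, including 2 members. The other 5 members lay between -0.21 and 0.88. Such rises were not particular to the pair: in edgeR miR-322-5p was at 3.52 (adjusted p = 0.0370) and miR-503-5p at 4.00 (adjusted p = 0.0357).

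ESC minus DMEF called 4 members in newly made RNA, where 26.9% of all miRNAs were lower and 15.5% higher. miR-15b-3p fell by 1.95 (adjusted p = 0.0186), miR-15a-5p by 1.85 (adjusted p = 0.00728) and miR-16-5p by 1.61 (adjusted p = 0.0122), and miR-497a-5p rose by 2.77 (adjusted p = 0.0493, on 5 and 11 EU reads in ESC and 3 and 27 in DMEF), all in edgeR. Leaving out any 1 course of either line left at most 1 of these calls.

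Guides outlasted their passengers in every course. Half-lives were fitted to EU counts per count of the synthetic standards, as an approach to a plateau, and the shortest value that could be returned was 0.25 h. The fits had no term for cell growth, so decay and dilution by cell division cannot be told apart. In EU libraries these standards had 63579 to 355542 reads in course 1 of CIMEF and DMEF. They had 183 to 2271 reads in the other courses, and the hours change with another standard, as given below. Input libraries had the reverse, with 1641 and 2259 standard reads per course in course 1 of CIMEF and DMEF and 148600 to 565219 in the others. Outside course 1 of CIMEF and DMEF the hours thus rest on standards that were scarce in EU and plentiful in input libraries. Whether they suit half-lives there was not tested. miR-15a-5p outlasted miR-15a-3p by at least 5.68 times and miR-15b-5p outlasted miR-15b-3p by at least 5.99 times in each of the 7 courses. miR-15a-3p had half-lives of 0.79 and 0.31 h in ESC and 0.71 and 0.29 h in CIMEF, and was at the 0.25 h limit in CyrKO and both DMEF courses. miR-15b-3p had 1.42 and 0.83 h in ESC, the 0.25 h limit in CyrKO, 1.91 and 1.23 h in CIMEF, and 0.52 h and the 0.25 h limit in DMEF. The first labelled libraries were taken at 1 h, and at 2 h in CyrKO, so half-lives below these times were not resolved. Differences between such short values, and ratios that use them, are uncertain.

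The passengers of miR-16 differed by locus in this measure too. miR-16-1-3p was at the 0.25 h limit in 6 courses and at 0.25 h (fitted) in ESC course 2. miR-16-2-3p had half-lives of 2.42 and 2.47 h in ESC, 2.13 h in CyrKO, 9.36 and 4.51 h in CIMEF, and 3.03 and 0.54 h in DMEF. The miR-16-2 passenger had the longer fitted half-life in each of the 7 courses, though in DMEF course 2 both values lay below the first labelled time.

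Among the guides, miR-16-5p had a longer fitted half-life than miR-15b-5p in 7 of 7 courses and than miR-15a-5p in 6 of 7. With the 0 h value not subtracted it was longer than miR-15b-5p in 6 of 7, with a lowest ratio of 0.983. Its half-life was 19.1 and 6.14 h in ESC, 6.29 h in CyrKO, 43.0 and 30.8 h in CIMEF, and 6.87 and 2.39 h in DMEF. miR-15b-5p had 15.6 and 4.99 h in ESC, 2.90 h in CyrKO, 14.6 and 13.6 h in CIMEF, and 5.41 and 2.34 h in DMEF. In ESC course 1 the interval of each guide reached the upper end of the fit, 240.0 h.

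miR-15a-5p had the upper limit and 5.08 h in ESC, 2.84 h in CyrKO, 21.7 and 19.0 h in CIMEF, and 4.90 and 1.42 h in DMEF. miR-195a-5p had the upper limit and 6.47 h in ESC, 1.75 h in CyrKO, 48.0 and 10.2 h in CIMEF, and 8.06 and 2.86 h in DMEF. miR-497a-5p had 8.97 and 2.88 h in ESC, 1.43 h in CyrKO, 15.6 and 9.78 h in CIMEF, and 8.23 and 1.14 h in DMEF.

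Set against all miRNAs fitted in the same course, miR-16-5p was in the longer-lived part throughout. It was longer-lived than 62.2% and 93.8% of miRNAs in ESC, 73.6% in CyrKO, 83.8% and 88.5% in CIMEF, and 87.7% and 82.2% in DMEF. The course medians were 9.44 and 2.83 h in ESC, 3.46 h in CyrKO, 15.6 and 10.3 h in CIMEF, and 3.35 and 1.54 h in DMEF.

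**Figure D4:**
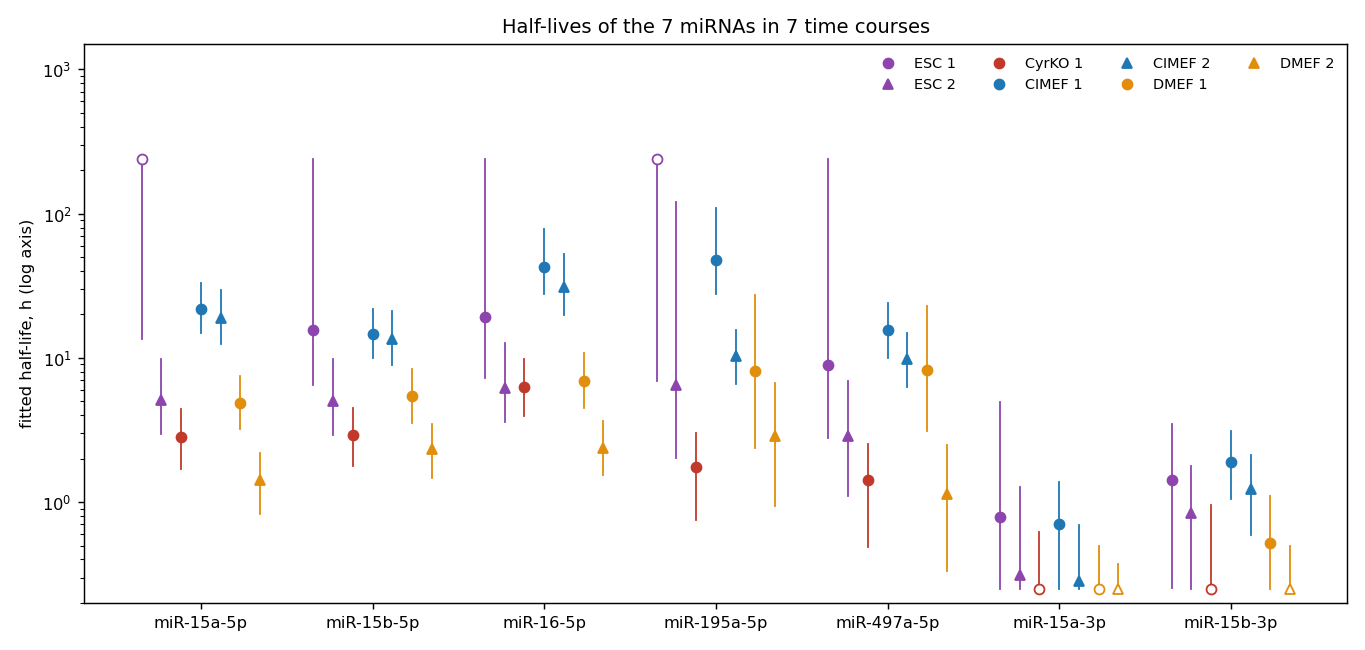
Fitted half-lives in hours on a log axis of the 7 members in 7 courses, with 95% intervals of the fit and open symbols for values at a limit of the fit. Passenger strands lie at or below 1.91 h, and miR-16-5p reaches 43.0 h in CIMEF, with wide intervals in ESC course 1.

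In limma on log2 half-lives, 3 members (miR-15b-5p, miR-16-5p and miR-497a-5p) could be tested among the miRNAs with values in every wild-type course. CIMEF minus DMEF called 7 miRNAs (4.83%) and no member. miR-16-5p was at 3.17 (SE 1.48, adjusted p = 0.0866), miR-497a-5p at 2.01 and miR-15b-5p at 1.98, where the median of all miRNAs was 2.69 and 66 passed at an unadjusted p under 0.05. ESC minus DMEF called none (0.0%), with 16 at an unadjusted p under 0.05 and members at 0.73 to 1.42. With the course number as a term, CIMEF minus DMEF called 98 miRNAs, among them 2 members. ESC minus DMEF then called 8 miRNAs and no member. The CIMEF minus DMEF result thus depends on whether courses are paired by number. No other tool was run on half-lives. DMEF was dividing and CIMEF was contact-inhibited, and the part of dilution by division in these differences was not tested.

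These half-lives depend on which added RNAs serve as the standard. With the 3 spike features that stand out in EU libraries as the standard, whose role the labels do not explain, miR-16-5p had 8.52 and 22.3 h in ESC, 27.6 h in CyrKO, 130 and 135 h in CIMEF, and 27.8 and 15.9 h in DMEF. miR-15a-3p had 0.69 and 0.54 h in ESC, the 0.25 h limit in CyrKO, 4.93 and 1.99 h in CIMEF, and 0.63 h and the 0.25 h limit in DMEF. Of 5 members that could then be tested, 3 were called longer in CIMEF than in DMEF, among 86 miRNAs, and miR-16-5p was one of them. Guides still outlasted passengers in 7 of 7 courses, by at least 14.5 times for miR-15a and 3.30 times for miR-15b, and miR-16-5p outlasted miR-15b-5p in 5 courses and equalled it in 2.

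Background in the pulldown bears on the earliest guide values of CIMEF. In course 1 the 0 h library held, per standard count, 86.7% of the 1 h signal of miR-195a-5p (9 reads at 0 h and 10 reads at 1 h) and 74.4% of its 2 h signal. It held 73.9% of the 1 h signal of miR-16-5p, 61.3% of that of miR-15b-5p and 44.7% of that of miR-15a-5p, but 4.97% for miR-15a-3p and 2.35% for miR-15b-3p. In DMEF course 1 it was at most 7.55% for any member, and in ESC course 1 at most 22.2%. The 0 h libraries exist for course 1 of each wild-type line, so the background of the other courses was not measured.

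Input levels of 4 of the 7 members were called with a slope in no line over labelling. The slope of log2 level per unit of log2(hours + 1) was called for miR-16-5p in CIMEF, where it rose by 0.06 (adjusted p = 0.0161), with 10.2% of 667 miRNAs called upward and 7.8% downward. In DMEF it was called for miR-16-5p (0.09, adjusted p = 0.0141) and miR-15b-5p (0.08, adjusted p = 0.0156), with 5.85% called upward and 2.25% downward. Without the 0 h libraries none of the 3 was called, the CIMEF call was lost without CIMEF course 2, and both DMEF calls were lost without DMEF course 1. In ESC edgeR called no member and 23 miRNAs (3.45%), with 94 at an unadjusted p under 0.05, and DESeq2 called 28, with no member among them. In CyrKO miR-195a-5p fell by 0.13 per unit (adjusted p = 0.0271), with 8.25% of miRNAs called downward and 11.4% upward, and its 1 week library stood at 105.6 CPM against 169 to 235 CPM at the other times. Time points of 1 culture stand in for replicates in these slopes.

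Host transcripts were read from the mRNA libraries of ESC, CIMEF and DMEF, in CPM. Dleu2, the host of miR-15a and miR-16-1, stood at 18.0 and 21.4 CPM in ESC, 104 and 77.6 CPM in CIMEF, and 28.9 and 30.2 CPM in DMEF. It was higher in CIMEF than in DMEF by 1.62 on the log2 scale (adjusted p = 0.00164), and in ESC it fell by 0.59 against DMEF (adjusted p = 0.0320) and by 2.20 against CIMEF (adjusted p = 7e-05). The order of the lines was that of miR-15a-5p and miR-16-5p, but not of miR-16-1-3p, whose CIMEF and DMEF courses overlapped in standing RNA. That order was not particular to Dleu2: Smc4 and its neighbour Ift80 had it too.

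Smc4, the host of miR-15b and miR-16-2, stood at 133.3 and 153.3 CPM in ESC, 526 and 537 CPM in CIMEF, and 310 and 249 CPM in DMEF. It was higher in CIMEF than in DMEF by 0.93 (adjusted p = 0.00508), and in ESC it fell by 0.96 against DMEF and by 1.89 against CIMEF (adjusted p = 0.00163 and 5.8e-05). miR-15b-5p had a CIMEF minus DMEF value of 0.10. Of their neighbours, Ift80 was higher in CIMEF than in DMEF by 1.91 (adjusted p = 0.00291), Trim13 fell by 0.77 (adjusted p = 0.0320), and Trim59 (-0.38) and Kcnrg (0.67) did not pass. Mir497b, the annotated gene at the chromosome 11 locus in the table, had a count of 0 in each of the 6 libraries. The libraries were made with a directional kit, but the strand setting of the counting is not given in the sources used here, so overlapping genes may share reads.

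The list of 30 reported targets, drawn from work on human and mouse cells, moved in both directions in each comparison. In CIMEF against DMEF 4 rose and 13 fell, where 19.5% of 18094 genes were called higher and 21.1% lower, and the list's median log2 difference was -0.33 against 0.00 for all genes. In ESC against DMEF 10 rose and 15 fell, with 30.3% of genes higher and 30.5% lower and list and gene medians of -0.33 and 0.06. In ESC against CIMEF 14 rose and 11 fell, with 38.2% higher and 37.7% lower and medians of 0.40 and 0.06. Many of these genes act in the cell cycle, and 2 of 4 dividing-cell markers (Ccnb1 and Cdk1) also fell in CIMEF while Mki67 rose by 0.72. Their part in the counts was not tested.

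Among cell-cycle targets, Ccnd1, the D-type cyclin that drives entry into S phase, stood at 280 and 267 CPM in ESC, 83.5 and 120.1 CPM in CIMEF, and 403 and 377 CPM in DMEF. It fell by 1.94 in CIMEF against DMEF (SE 0.19, adjusted p = 0.00102) and by 0.51 in ESC against DMEF (adjusted p = 0.0477), and rose by 1.43 in ESC against CIMEF. Ccne1, the E-type cyclin that acts after it, stood at 292 and 291.1 CPM in ESC, 32.7 and 21.1 CPM in CIMEF, and 69.2 and 73.7 CPM in DMEF. It rose by 2.03 in ESC against DMEF (adjusted p = 0.000186) and fell by 1.41 in CIMEF against DMEF (adjusted p = 0.00331). Ccnd2, another D-type cyclin, fell by 4.37 in ESC against DMEF and by 3.86 against CIMEF, and was at -0.51 in CIMEF against DMEF (adjusted p = 0.287).

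Of 2 checkpoint kinases, 1 was called. Chek1, which halts the cycle at damaged or unfinished DNA, stood at 58.0 and 66.5 CPM in ESC, 48.1 and 39.1 CPM in CIMEF, and 35.5 and 37.7 CPM in DMEF, and rose by 0.76 in ESC against DMEF (adjusted p = 0.00601) and by 0.51 in ESC against CIMEF (adjusted p = 0.0248). Wee1, which holds back entry into mitosis, did not pass in any comparison, at 0.23 in ESC against DMEF, 0.28 in ESC against CIMEF and -0.05 in CIMEF against DMEF.

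Bcl2, the anti-apoptotic gene best known as a target of miR-15a and miR-16 in human leukaemia cells, stood at 0.67 and 0.63 CPM in ESC, 26.9 and 31.5 CPM in CIMEF, and 25.4 and 13.1 CPM in DMEF. It fell by 4.87 in ESC against DMEF (SE 0.40, adjusted p = 6e-05) and by 5.47 against CIMEF (adjusted p = 3e-05), and was at 0.60 in CIMEF against DMEF (adjusted p = 0.163). Its lowest level was thus in ESC, where miR-15a-5p and miR-16-5p were also lowest, and a relation between Bcl2 and these miRNAs was not tested.

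Of the 4 targets that rose in CIMEF against DMEF, the 3 largest rises were those of Fgf2, Fgfr1 and Acvr2a. Fgf2, a fibroblast growth factor, rose by 2.25 (adjusted p = 0.00494), with 0.78 and 1.23 CPM in ESC, 57.0 and 32.6 CPM in CIMEF, and 11.8 and 6.99 CPM in DMEF. Its receptor Fgfr1 rose by 1.25 (adjusted p = 0.0132) and the activin receptor Acvr2a by 1.13 (adjusted p = 0.00245). Of those that fell, Hmga1, a chromatin protein gene with near-identical copies in the genome that makes its count uncertain, fell by 3.41 (adjusted p = 0.000508) and the VEGF receptor Kdr by 2.65 (adjusted p = 0.00175).

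In ESC, Hmga1 rose by 4.47 against CIMEF, and the transcription factor gene Myb rose by 4.61 against DMEF and by 3.84 against CIMEF, at 10.99 and 9.64 CPM in ESC. Jun, a transcription factor of the growth response, fell by 5.47 in ESC against DMEF and Fgf2 fell by 5.48 against CIMEF. Wnt3a, a secreted signal of the stem-cell niche, had 73 and 62 reads in ESC, none in CIMEF, and 0 and 1 reads in DMEF. That is at least 40.6-fold higher in ESC than in CIMEF, against a floor of 3 reads over the line, and 137-fold higher than in DMEF with an exact 95% interval of 24.2 to 5447, which covers counting error only.

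**Figure D5:**
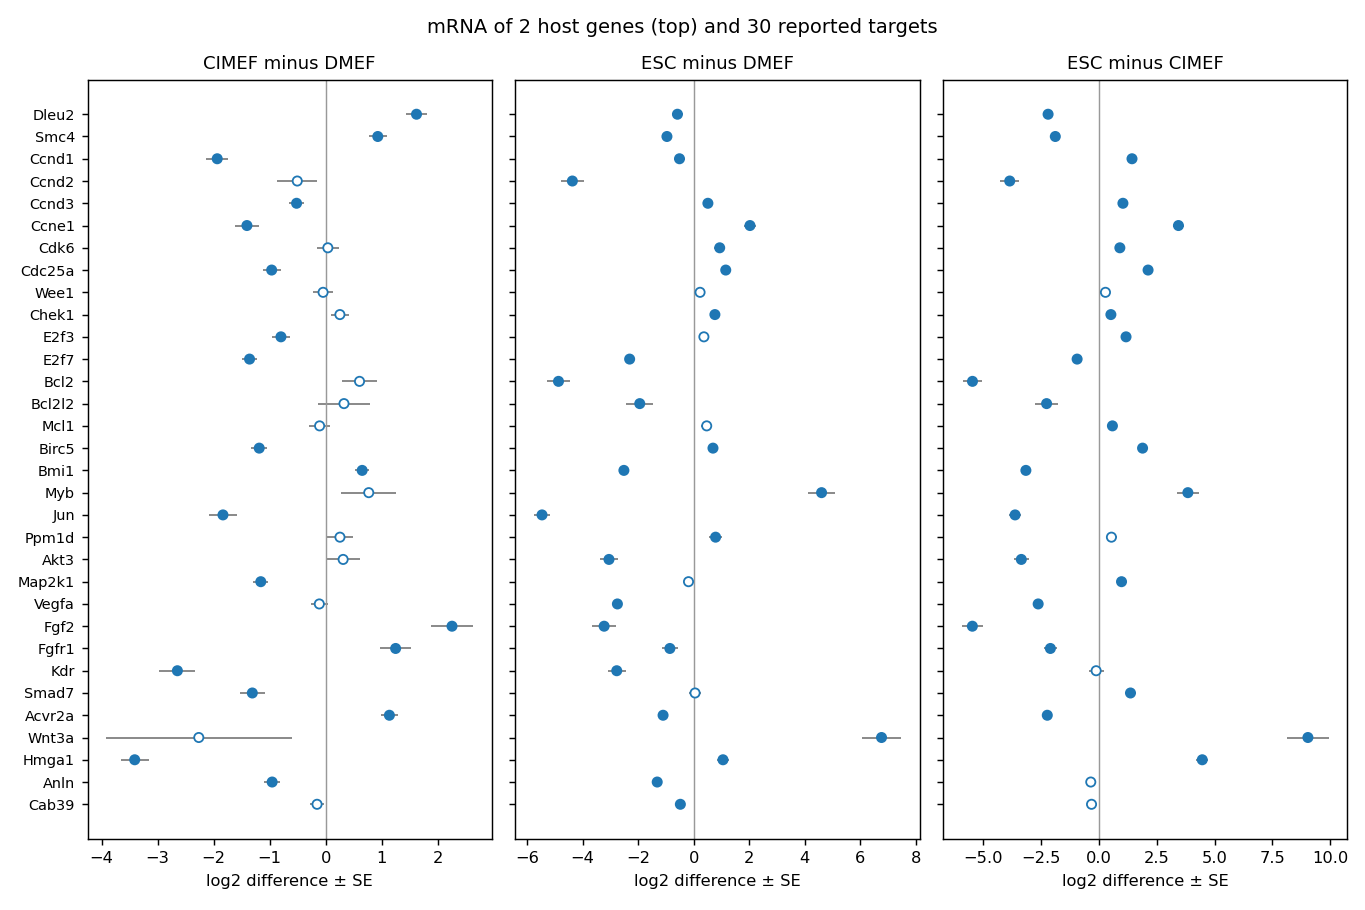
Log2 differences of mRNA with their standard errors for the hosts Dleu2 and Smc4 (top) and 30 reported targets, for CIMEF minus DMEF (left), ESC minus DMEF (middle) and ESC minus CIMEF (right), with filled points for genes called in edgeR. Dleu2 is at 1.62, -0.59 and -2.20, targets lie on both sides of 0 in each panel, and the Wnt3a points rest on 0 or 1 read in a fibroblast line.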

How the data were processed

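All values start from the read counts that the authors deposited, 1 count per mature miRNA or gene, with no normalization. Adapter removal with cutadapt is named for all samples in the submitters' processing notes. The notes add STAR 2.4, HTSeq 0.9.1 and mm10/GRCm38 for most, but not for CyrKO and course 2 of ESC. Use of the random adapter bases against duplicate reads is not recorded, so intervals cover counting error only. The members, lists and tests were chosen with earlier results of these data known. The text names all 7 members, partner strands, relatives with the seed, hosts and neighbours, Ccnd1, Ccne1, Bcl2, Chek1 and Wee1, and the 3 targets per comparison and direction with the largest called change. Of the 15 tables' 100 columns, all were used; 5 DMEF EU samples are second runs whose column could hold either run or both.

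Level tests used edgeR 4.0.16 in R 4.3.3 (TMM scaling, filterByExpr, quasi-likelihood test, Benjamini-Hochberg over all features, threshold 0.05) on counts summed per course, with 1 fit over all groups. New against standing RNA used EU and input sums of 1 h and 2 h with the course as a term, since both come from the same cultures. CyrKO has 1 course, whose spread was taken from the others. Half-lives were fitted as A(1 - exp(-kt)) over a grid of 400 values from 0.25 h to 10 times the last time, to EU counts per standard count less the 0 h value of course 1, with a noise SD of 0.2, and tested with limma 3.58.1. Standards differ so much between courses that the 0 h value barely enters course 2. Strand ratios used a pseudocount of 0.5. DESeq2 1.42.0, other standards, filters, times and leaving out each course were alternatives. Fits were tested on simulated data. Sequences and coordinates are RefSeq's for GRCm38.p6.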

Additional observations from a re-analysis of the deposited data

Results flagged for a closer look

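In the 6 CyrKO input libraries, miR-15b-5p at 1 week stood at 7903.6 CPM and miR-497a-5p at 1 week at 117.84 CPM, each far below the other 5 libraries (10800 to 11815 CPM and 194.9 to 217 CPM). Chance flags about 1 in 20 such groups, and 7 were examined.

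The difference of new against standing RNA in ESC minus DMEF, tested in edgeR as a contrast of the 2 effects, was -1.91 for miR-15a-3p, -1.79 for miR-15a-5p, -1.75 for miR-15b-3p, -1.32 for miR-15b-5p, -1.64 for miR-16-5p and -2.33 for miR-195a-5p (log2, adjusted p of 7.4e-05 to 0.0304). The median of all 603 miRNAs was -1.49, so these values are largely shared with miRNAs outside the family.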

How the results depend on the processing

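Counts of members called are given first and of all features second. Standing levels, CIMEF minus DMEF, gave 0 and 0 in edgeR, 3 and 112 in DESeq2, and 0 to 4 and 0 to 207 with 1 course left out (4 without CIMEF course 1, 2 without CIMEF course 2). ESC minus DMEF gave 2 and 388, and 0 and 0 with synthetic standards, where miR-195a-5p and miR-497a-5p turned to -4.38 and -4.27; without ESC course 1 and without ESC course 2 it called 53.6% and 56.4% as many features. ESC minus CIMEF gave 2 and 459, 0 and 1 with standards, and 2 to 4 and 268 to 569 with 1 course left out. CyrKO minus CIMEF gave 0 and 7, 34 features in DESeq2, 0 with standards, 4 over shared times, 12 and 165 without CIMEF course 1 or 2, and 5 and 225 library by library, an alternative added after seeing the files in which time points stand in for replicates.

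New against standing gave 5 and 310 in CIMEF, 3 and 147 with no replicate block. DMEF gave 5 and 284, 3 members over 2 h and 4 h, 2 and 110 with no replicate block, and 2 and 169 without DMEF course 1 (2 to 5 members with 1 course left out). ESC gave 5 and 303, 165 features in DESeq2 and 132 with no replicate block. ESC minus DMEF gave 6 and 175, 1 and 38 in DESeq2, 1 and 67 over 2 h and 4 h, 0 and 1 with no replicate block, and 2 to 7 and 71 to 180 with 1 course left out. Relative to the median, added after seeing the data, miR-15b-5p turned to 0.17. CIMEF minus DMEF gave 13 features, 0 with no replicate block and 1 to 5 without CIMEF course 2 or either DMEF course.

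Newly made miRNAs, CIMEF minus DMEF, gave 0 and 13, 2 and 54 in DESeq2, 2 and 33 with no filter, and 0 to 2 and 0 to 134 with 1 course left out. ESC minus DMEF gave 4 and 186, and 0 to 1 and 116 to 140 with 1 course left out. Input drift gave 1 and 120 in CIMEF, 0 members without the 0 h libraries, 0 and 55 without CIMEF course 2, and 50 features without CIMEF course 1. DMEF gave 2 and 54, 0 members with no filter, 0 and 30 without the 0 h libraries, 0 and 4 without DMEF course 1, and 22 features without DMEF course 2. Half-lives, CIMEF minus DMEF, gave 0 and 7, 3 and 86 with the EU spikes (added after seeing the files), 2 and 98 with the replicate block, 21 features at a noise SD of 0.4, 12 without subtraction, 0 up to 24 h and 0 to 1 with 1 course left out. ESC minus DMEF gave 0 features, 8 with the replicate block and 14 without ESC course 2. The mRNA comparison CIMEF minus DMEF gave 7340 genes, and 3605 without DMEF library 2. The strand differences ranged from 2.82 to 3.03 (miR-15a) and from 2.77 to 2.99 (miR-15b) with 1 course left out, where the smallest exact p is 0.0625. The cause of these changes was not tested.

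Whether courses of a number pair across lines is not settled. Deviations of input courses correlated at 0.26 between CIMEF and DMEF and at 0.11 and 0.08 between ESC and these lines. Those of mRNA libraries correlated at -0.02 to 0.06. Input standards had 1641 and 2259 reads in course 1 of CIMEF and DMEF, against 148600 and 238949 in course 2. In ESC they had 565219 and 349313 reads. The standards thus went with the course number in CIMEF and DMEF. The replicate block gave 0 and 0 features for CyrKO minus CIMEF and newly made CIMEF minus DMEF, and 24 of 30 targets against 25 in ESC minus DMEF. Course 1 had the longer median half-life in all 3 wild-type lines. Early values of miR-195a-5p and miR-497a-5p in ESC and DMEF rest on as few as 1 EU read, which limits their precision.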
